A study of Mus musculus with 6 samples.

Results

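Notch signaling passes between touching cells. The 10 genes described here are 3 ligands (Jag1, Jag2 and Dll4), the 4 receptors (Notch1, Notch2, Notch3 and Notch4) and 3 target genes (Hes1, Hey1 and Heyl). They were chosen as named genes of the pathway, with earlier results of these data known, from the 18453 genes with any count in the files. Each was represented by 1 RefSeq transcript. RNA was measured in whole livers of 6 male Mettl14f/f mice, 3 labelled AAV8-TBG-GFP and 3 labelled AAV8-TBG-Cre, called the GFP and the Cre livers here. All 6 carried the floxed Mettl14 alleles and received an AAV8 vector by tail vein, so the floxed alleles, the virus and the diet were shared by both groups. HFD began at 8 weeks of age, the vector was given after 10 weeks of HFD, and livers were collected 8 weeks later. The TBG promoter limits Cre or GFP to hepatocytes, and the other cells of the liver keep their Mettl14 alleles. The sample labels call the GFP group wild type, whereas the study's methods describe floxed mice in both groups.

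In the liver, Notch signaling is known for steering bipotent progenitors toward the bile duct lineage and for its activity in fibrosis. A jagged or delta-like ligand on a neighboring cell pulls on a Notch receptor, ADAM proteases and gamma-secretase cut the receptor, and its released intracellular domain enters the nucleus. There it joins the DNA-binding protein RBPJ and a mastermind coactivator and turns on genes of the Hes and Hey families, which encode transcriptional repressors.

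Libraries held between 20356459 and 21010524 expected counts, estimates of fragments per transcript that need not be whole. The targeted gene Mettl14, a subunit of the m6A methyltransferase, had 124, 126 and 111 counts in the GFP livers and 104, 131 and 101 in the Cre livers. Its level was 6.18 ± 0.326 CPM (counts scaled to library size, after TMM, SD, n = 3) against 5.07 ± 0.275 (SD, n = 3), and the log2 fold change was -0.29 (edgeR, SE 0.15, adjusted p = 0.337). In CPM, all 3 Cre livers (4.86 to 5.38) lay below all 3 GFP livers (5.81 to 6.43). Mettl14 did not pass the test, transcript totals leave recombination of the floxed exon unseen, and both groups are therefore named by label alone. The paper reports less METTL14 protein, in nuclear extracts, and lower total m6A in livers given AAV8-TBG-Cre. Those assays used livers taken at an earlier time after the vector than the livers described here. Library names in the labels have 2 or 4 digits, and neither the labels nor the study's methods explain the 2 forms. The 2-digit form belongs to GFP replicates 1 and 2 with Cre replicate 1, and the 4-digit form to the remaining 3 livers. Across the 13431 genes tested, 21.6% separated the livers fully by this form.

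Genes were called at an unadjusted edgeR p under 0.05 with a fold change of at least 1.2, and "rose" and "fell" refer to this threshold alone. The study gives the same cutoffs for p and fold, names DESeq2, and does not say whether its p was adjusted. Jag1, Notch2 and Hey1 rose in the Cre livers, so 3 of the 9 members tested were called higher, and 0 were called lower. Among all genes tested, 12.0% were called higher and 8.41% lower. No member passed a Benjamini-Hochberg adjusted p of 0.05 over all genes in edgeR, in DESeq2 or in any other setting tried, whereas 0.931% of all genes did in edgeR. The log2 fold change was above 0 for 7 members and below 0 for 2, with a median of 0.32 over the 9, against -0.0065 over all genes. For Jag1 and Hey1 every Cre liver lay above every GFP liver, as did 14.0% of all genes tested. The count of 3 members was 1 without GFP replicate 2, without Cre replicate 2, or with the name form as a covariate. Over all genes, the 1618 called higher became 1262, 1108 and 1421 in these settings. Jag2 had too few counts to be tested.

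**Figure D1:**
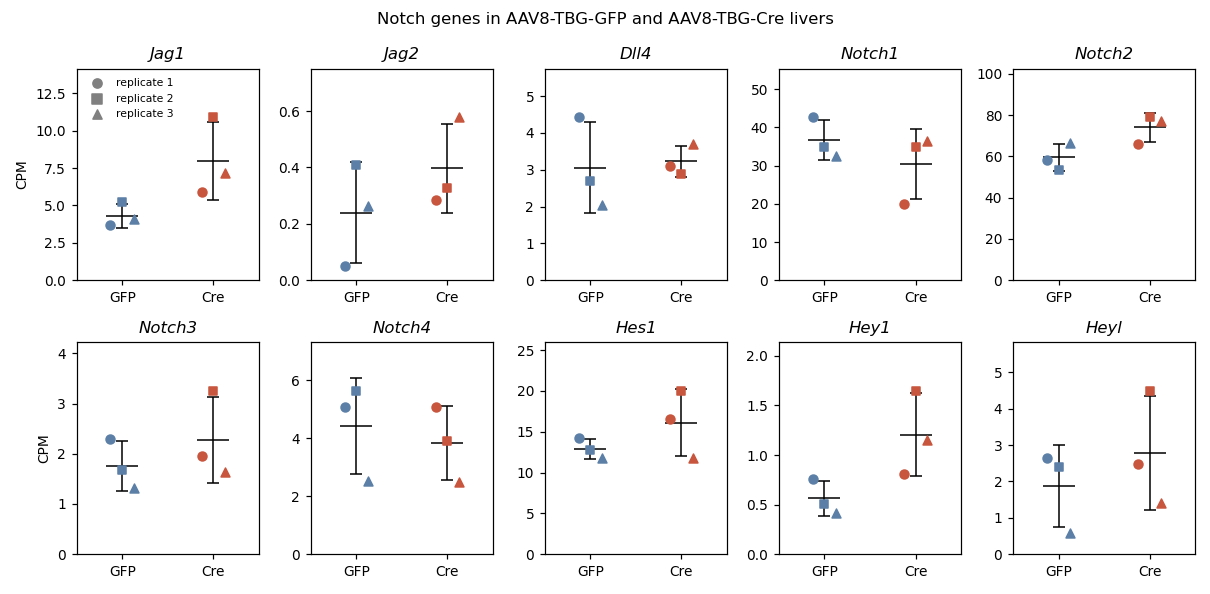
Level of each Notch member in CPM after TMM scaling (vertical axis of each panel, starting at 0) in the 3 GFP and the 3 Cre livers, 1 point per liver with the group mean and SD. Jag1 spans 3.66 to 5.20 CPM with GFP and 5.87 to 10.9 with Cre, whereas the ranges of Notch1, at 32.6 to 42.6 and 19.9 to 36.6, overlap.

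The promoters of Jag1 and Notch2 are printed because these are the called members with a promoter window in the RefSeq table of GRCm38.p6. Each window runs from 250 bases before the transcription start to 50 bases after it, 5' to 3' on the gene's strand, and capitals mark CG dinucleotides. Jag1 lies at chr2:137081451-137116520 on the minus strand, with its window at chr2:137116471-137116770. Notch2 lies at chr3:98013538-98150367 on the plus strand, with its window at chr3:98013288-98013587.
Jag1: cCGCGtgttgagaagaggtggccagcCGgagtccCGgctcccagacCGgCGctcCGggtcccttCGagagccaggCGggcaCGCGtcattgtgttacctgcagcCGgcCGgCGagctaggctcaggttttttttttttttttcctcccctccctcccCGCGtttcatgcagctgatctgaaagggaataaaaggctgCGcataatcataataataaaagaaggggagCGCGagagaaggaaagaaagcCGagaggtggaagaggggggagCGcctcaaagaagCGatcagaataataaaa
Notch2: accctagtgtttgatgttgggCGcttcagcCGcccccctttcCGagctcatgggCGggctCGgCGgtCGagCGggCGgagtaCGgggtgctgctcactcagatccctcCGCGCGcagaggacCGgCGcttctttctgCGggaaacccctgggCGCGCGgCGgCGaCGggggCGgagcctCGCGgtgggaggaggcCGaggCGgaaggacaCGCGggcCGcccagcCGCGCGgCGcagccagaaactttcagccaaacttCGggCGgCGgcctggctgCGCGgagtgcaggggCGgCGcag
The Jag1 window held 22 CG dinucleotides at a GC content of 55.7%, and the Notch2 window 41 at 73.0%. The medians over all 32851 windows were 7 CG dinucleotides and 52.7% GC. Windows were found for 7 of the 10 members, and those of Hes1, Hey1 and Heyl were not in the table. Notch4, a receptor of the endothelium, had the fewest CG dinucleotides of the 7 (5), and Jag2 the most (63). The core letters TGGGAA of the RBPJ site, searched on both strands (TTCCCA in reverse), occurred in 0 of the 7 windows and in 25.6% of all windows. This says only that these letters are not in these windows.

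Jag1 is the ligand whose loss causes bile duct paucity in people with Alagille syndrome. Jag1 (gene ID 16449) had 3.66, 5.20 and 4.08 CPM in GFP replicates 1, 2 and 3. In the Cre livers it had 5.87, 10.9 and 7.17 CPM. Cre replicate 2 was the highest and the groups did not overlap. The means were 4.32 ± 0.798 and 7.98 ± 2.60 CPM (SD, n = 3 each), a 1.85-fold difference. Its log2 fold change was 0.89 (edgeR, 95% confidence interval 0.27 to 1.51, SE 0.27, adjusted p = 0.128). Jag1 was called higher under all 14 alternatives, with log2 values from 0.53 to 1.06, and it was 0.59 without Cre replicate 2. The exact two-sided permutation p was 0.1, the smallest that 3 livers against 3 allow, and 0.45 after adjustment over the 9 members tested in this way. The log2 difference was 0.41 among the livers with a 2-digit name and 1.14 among those with a 4-digit name, with 1 or 2 livers per group in each.

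Jag2, the other jagged ligand, was close to the counting floor. It had 1, 8 and 5 counts in the GFP livers and 6, 8 and 12 in the Cre livers, 14 against 26 in all. The groups overlapped, and at this depth no difference was detectable. Fits without a count filter gave a log2 fold change of 0.70 in edgeR (adjusted p = 0.635), and DESeq2 gave 0.72 (adjusted p = 0.746).

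Dll4, a ligand of endothelial cells, showed no called difference. Its levels were 4.42, 2.70 and 2.04 CPM with GFP and 3.10, 2.88 and 3.71 with Cre. The spread with GFP took in all 3 livers of the other group. The means were 3.06 ± 1.23 and 3.23 ± 0.430 CPM (SD, n = 3), and the log2 fold change of 0.08 had a 95% interval from -0.64 to 0.80 (edgeR, adjusted p = 0.914). Its sign turned when GFP replicate 3 was left out (-0.15), when Cre replicate 3 was (-0.04), and when GFP replicate 2 was (-0.0062).

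Of the ligands outside the 10 members, the delta-like ligand Dll1 rose. It had 2.85, 3.52 and 3.61 CPM with GFP and 5.20, 5.75 and 7.17 with Cre, and the groups did not overlap. The log2 fold change was 0.86 (edgeR, SE 0.20, adjusted p = 0.0805), and over the 14 alternatives, in all of which it was called higher, the adjusted p ran from 0.0159 in DESeq2 to 0.236. Dll3, Dlk1 and Dlk2 had too few counts to be tested.

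Notch2 is the receptor that drives bile duct formation in the developing liver. It rose by a small amount. Notch2 (gene ID 18129) had 58.5, 53.6 and 66.6 CPM with GFP, and 66.1, 78.9 and 77.4 with Cre. The groups met at their edges, since Cre replicate 1 lay just below GFP replicate 3. The means were 59.6 ± 6.60 and 74.2 ± 6.99 CPM (SD, n = 3 each). The log2 fold change of 0.32 (95% interval 0.03 to 0.60, SE 0.12) had an adjusted p of 0.205 in edgeR. Notch2 was called in 9 of 14 alternatives. The log2 value was 0.30 without GFP replicate 1, 0.25 without GFP replicate 2, 0.27 without Cre replicate 2 and 0.28 without Cre replicate 3, and the call was lost each time. All 3 livers with a 4-digit library name also had more Notch2 than all 3 with a 2-digit name. Within the 2 forms the log2 difference was 0.24 and 0.23.

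Notch1 had an interval on both sides of 0. Notch1, which acts in endothelial and immune cells among others, had 42.6, 35.0 and 32.6 CPM with GFP and 19.9, 35.0 and 36.6 with Cre. Cre replicate 1 stood below the other 5 livers, which lay close together. An edgeR log2 fold change of -0.27 (95% interval -0.80 to 0.26, adjusted p = 0.553) resulted. It was -0.04 without Cre replicate 1. The log2 difference was -0.96 among livers with a 2-digit name, where that liver alone stands for Cre, and 0.14 among those with a 4-digit name.

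Notch3 and Notch4 were low and not called. Notch3, a receptor of mural cells and stellate cells, had 2.29, 1.68 and 1.31 CPM with GFP and 1.96, 3.24 and 1.64 with Cre. Its groups overlapped, and the log2 fold change was 0.38 (edgeR, 95% interval -0.44 to 1.19, adjusted p = 0.588), or 0.03 without Cre replicate 2. Notch4 had 5.08, 5.61 and 2.51 CPM with GFP and 5.06, 3.90 and 2.503 with Cre. The log2 fold change of Notch4 was -0.20 (edgeR, 95% interval -1.05 to 0.64, adjusted p = 0.792). Every liver with a 2-digit library name had more Notch4 than every liver with a 4-digit name, and the sign of the fold change turned with the name form as a covariate (0.12), without GFP replicate 2 (0.0065) and without Cre replicate 3 (0.02).

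The target genes gave 1 call. Hey1, a repressor of the hairy/enhancer-of-split family, rose from a very low level. It had 15, 10 and 8 counts with GFP and 17, 40 and 24 with Cre, which are 0.762, 0.510 and 0.419 CPM against 0.811, 1.64 and 1.16. The groups did not overlap, but Cre replicate 1 exceeded GFP replicate 1 by 2 counts. The means were 0.564 ± 0.178 and 1.203 ± 0.418 CPM (SD, n = 3 each), a 2.13-fold difference. On the log2 scale the fold change was 1.09 (edgeR, 95% interval 0.15 to 2.03, SE 0.40, adjusted p = 0.186), and the exact permutation p was 0.1. Hey1 was called in 6 of 12 alternatives. The call was lost without Cre replicate 2 (0.79), Cre replicate 3 (1.12), GFP replicate 2 (1.02) or GFP replicate 3 (0.91). Among livers with a 2-digit name the log2 difference was 0.35, and among those with a 4-digit name 1.74.

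Hes1, the best known target of Notch in the bile duct lineage, was not called. It had 14.2, 12.8 and 11.8 CPM with GFP and 16.5, 19.96 and 11.8 with Cre. Cre replicate 3 matched the lowest GFP liver, and the other Cre livers lay above all 3. For Hes1 the log2 fold change was 0.32 (edgeR, 95% interval -0.14 to 0.77, SE 0.20, adjusted p = 0.406). Without Cre replicate 3 it was 0.49 and passed the unadjusted threshold.

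Heyl, a Hey-related repressor of vascular smooth muscle, had the widest spread within a group, relative to its mean, of the 9 members tested. It had 52, 47 and 11 counts with GFP and 52, 109 and 29 with Cre. The corresponding levels were 2.64, 2.40 and 0.576 CPM against 2.48, 4.48 and 1.40, and the ranges overlapped. The log2 fold change of 0.58 had a wide interval, from -0.79 to 1.95 (edgeR, adjusted p = 0.625). Without Cre replicate 2 the log2 value was 0.04.

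Cre replicate 2 had the highest CPM of the 6 livers for 6 of the 9 members tested, and for 23.3% of all genes tested. GFP replicate 3 had the lowest for 5 of the 9, but the share of all genes for which it was lowest was not computed. These counts describe single livers and were not tested.

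**Figure D2:**
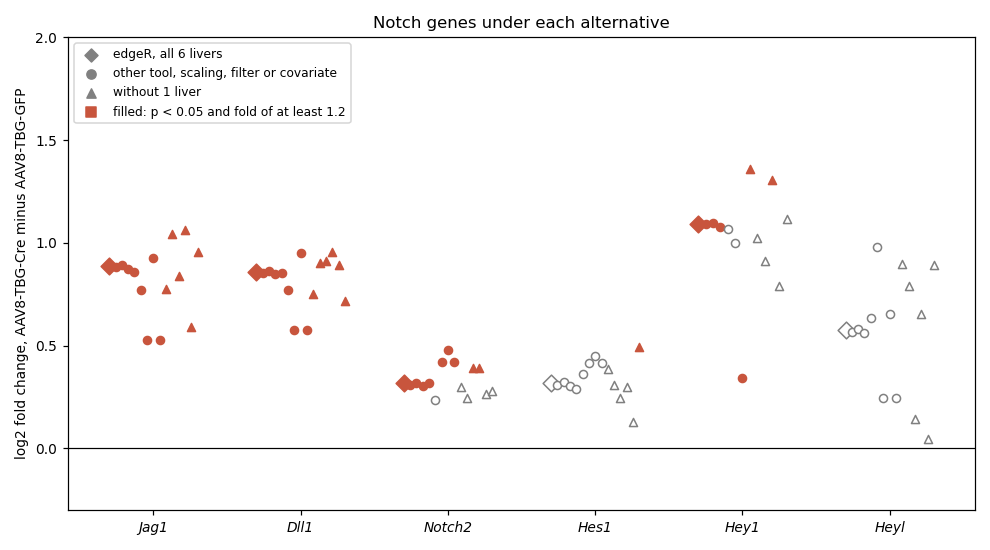
Log2 fold change (vertical axis, AAV8-TBG-Cre minus AAV8-TBG-GFP) of Jag1, Dll1, Notch2, Hes1, Hey1 and Heyl, 1 point per setting, with a diamond for edgeR on all 6 livers, circles for other tools, scalings, filters or covariates, triangles for fits without 1 liver, and color where the threshold was passed. Jag1 stays between 0.53 and 1.06 and is colored throughout, whereas Hey1 is colored in 6 of its 12 alternatives and Heyl in 0.

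Levels can be set between genes only per length, for which the authors' gene FPKM (fragments scaled by transcript length and library size) was used. In the GFP livers Hes1 was highest, with 8.25 ± 1.02 FPKM (SD, n = 3), followed by Notch2 with 5.25 ± 0.461 and Notch1 with 3.60. These 3 did not overlap in the GFP livers. Dll4 (0.833), Jag1 (0.733) and Notch4 (0.623) followed with overlapping ranges, then Heyl (0.390), Hey1 (0.240) and Notch3 (0.207), whose ranges overlapped as well, and Jag2 was last with 0.0533. In the Cre livers the first 3 places were the same, with Hes1 at 11.7 ± 4.02 FPKM and Notch2 at 7.40 ± 1.21 now overlapping. Jag1 came next with 1.55 FPKM, overlapping Notch1 (3.38), and every Cre liver had more Jag1 than any had Dll4 (0.977). Heyl (0.667), Notch4 (0.610), Hey1 (0.583) and Notch3 (0.307) followed with overlapping ranges, and Jag2 was again last (0.10). FPKM was not TMM scaled. On the log2(FPKM + 1) scale the median log2 difference was 0.11 over the 12138 genes with at least 0.5 FPKM in 3 livers. It was 0.0655 over 18453 genes without this filter.

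The makeup of the receptors and ligands was computed after the values of single genes were seen. Notch2 made up 50.1%, 51.7% and 61.5% of the summed receptor FPKM with GFP, and 66.9%, 61.6% and 62.4% with Cre. Notch1 made up 40.4%, 37.4% and 33.3% against 22.3%, 30.2% and 32.6%. The groups did not overlap for either share, though GFP replicate 3 was within 1 percentage point of the nearest Cre liver in both. The sum of the receptors was 9.68 ± 0.762 FPKM against 11.7 ± 2.35 (SD, n = 3), and it overlapped. The sum of the ligands Jag1, Jag2, Dll1, Dll3 and Dll4 was 2.74, 2.70 and 2.30 FPKM with GFP and 3.66, 5.36 and 4.54 with Cre, without overlap. The shares of the single ligands overlapped, with Dll4 at 31.8% ± 11.6 against 22.03% ± 3.51 (SD, n = 3). Among these 11 comparisons the smallest exact two-sided permutation p was 0.1, the lowest possible here, or 0.367 adjusted over the 11.

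**Figure D3:**
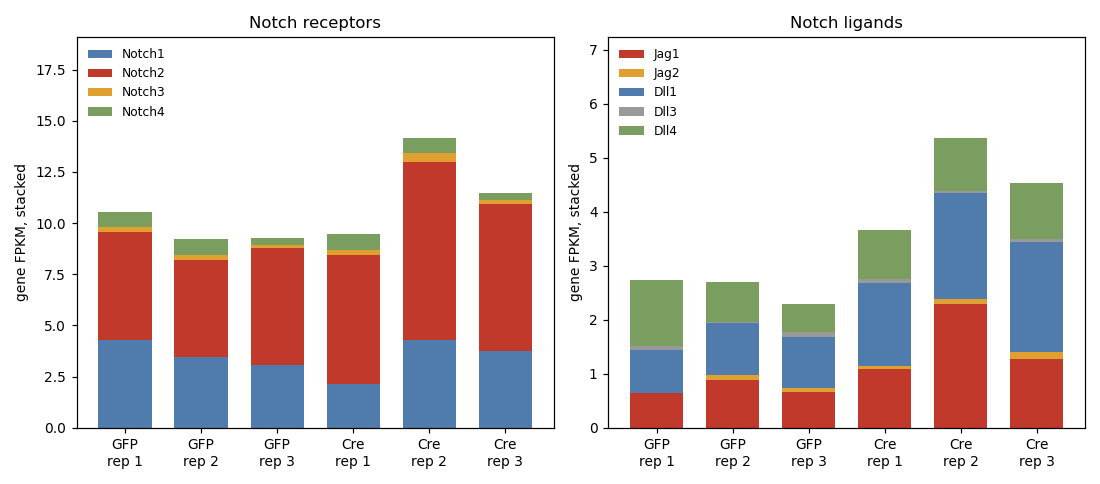
Gene FPKM of the authors stacked by gene for the receptors and for the ligands (vertical axes, starting at 0), 1 bar per liver. The summed ligands reach 2.30 to 2.74 FPKM in the 3 GFP livers and 3.66 to 5.36 in the 3 Cre livers.

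The wider pathway was covered by a list of 71 genes, of which 62 were tested. At the unadjusted threshold 14 were higher (22.6%, against 12.0% of all genes tested) and 1 was lower (against 8.41% of all genes). Without the 10 members, 11 of 53 tested were higher (20.8%) and 1 was lower. The median log2 fold change of the 62 was 0.10, against -0.0065 over all genes. None passed the adjusted p in edgeR, 3 did in DESeq2, and 3 in edgeR when Cre replicate 1 was left out. Over all genes fitted, 125 of 13431, 1157 of 18419 and 928 of 13678 passed in the same settings. The wider list was thus not above all genes by this measure. The count of 14 was 6 without Cre replicate 2 or GFP replicate 2, 8 without GFP replicate 3, and 9 without GFP replicate 1 or Cre replicate 3. Higher calls over all genes fell in these fits as well, from 1618 of 13431 to 1108 of 13527 without Cre replicate 2. They were 1262 of 13763 without GFP replicate 2 and 1469 of 13762 without GFP replicate 3. Without GFP replicate 1 they were 1300 of 13738, and without Cre replicate 3 they were 1555 of 13698.

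Among the ubiquitin ligases that act on Notch ligands, 3 of 6 rose. Neurl1a had 5, 4 and 5 counts with GFP and 20, 70 and 21 with Cre. Its log2 fold change of 2.73 (edgeR, SE 0.58, adjusted p = 0.0657) was the largest of the list, with Cre replicate 2 highest. Without that liver it was 2.00, and over its 12 alternatives the adjusted p ran from 0.00284 in DESeq2 to 0.269. Neurl1b (log2 0.83) and Neurl3 (0.52) also rose, with adjusted p of 0.233 and 0.226 in edgeR.

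Of the 9 proteases and gamma-secretase genes 1 rose (11.1%), near the 12.0% of all genes called higher. This was Aph1b, a gamma-secretase subunit, with 1.56 ± 0.330 against 2.77 ± 0.780 CPM (SD, n = 3) and an adjusted p of 0.187 in edgeR. Adam10 and Adam17, which make the first cut of the receptor, had log2 fold changes of 0.28 and 0.25 and did not pass (edgeR, adjusted p = 0.306 and 0.271). Psen2, a catalytic subunit, was at -0.06, and Ncstn, a further subunit, was at 0.07 (edgeR, adjusted p = 0.828 and 0.742).

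The trafficking and turnover genes gave 3 increases among 9 (33.3%, against 12.0% of all genes tested). Dtx3, a deltex-family gene, had 5.49, 4.18 and 5.18 CPM with GFP and 7.78, 11.9 and 8.62 with Cre, without overlap. Its log2 fold change was 0.93 (edgeR, SE 0.21, adjusted p = 0.0746, and from 0.00718 in DESeq2 to 0.234 over the 14 alternatives). Numbl, related to the Notch inhibitor Numb, was at 1.29 and Dtx1 at 1.44 on the log2 scale, with adjusted p of 0.133 and 0.166 in edgeR. Both came from low levels, 1.02 ± 0.523 and 0.615 ± 0.364 CPM with GFP (SD, n = 3).

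In the nuclear complex 1 of 9 rose (11.1%), again near the 12.0% of all genes. Rbpj, the DNA-binding protein of the pathway, had 18.8 ± 1.29 and 19.7 ± 2.05 CPM (SD, n = 3), a log2 fold change of 0.07 (edgeR, SE 0.12, adjusted p = 0.786). Maml1, a mastermind coactivator, was at 0.16 (edgeR, adjusted p = 0.462). Maml2 was at 0.61 (edgeR, adjusted p = 0.237), and its call was lost in all 12 alternatives. Of the 12 corepressors, Ctbp2 (0.83) and Tle1 (0.29) rose and Ctbp1 (-0.28) fell, with adjusted p of 0.226, 0.186 and 0.167 in edgeR. The 16.7% called higher and the 1 gene of 12 called lower were near the 12.0% and 8.41% of all genes. None of the 5 glycosyltransferases was called, and of the 10 target genes only 5 had enough counts. Hes5 had no count in any liver. With each liver left out in turn, Dll1, Neurl1a, Dtx3 and Numbl kept their calls in all 6 fits. Leaving out Cre replicate 2 ended the calls of Neurl1b (0.75), Neurl3 (0.37), Aph1b (0.67), Dtx1 (1.06) and Ctbp2 (0.43). Leaving out GFP replicate 3 ended those of the same 5 genes, at 0.82, 0.36, 0.71, 1.33 and 0.65. GFP replicate 2 did so for Neurl1b (0.61), Aph1b (0.77), Dtx1 (1.12), Ctbp2 (0.95) and Tle1 (0.23), and GFP replicate 1 for Neurl3 (0.46), Ctbp2 (0.90), Tle1 (0.32) and Ctbp1 (-0.25). Cre replicate 3 did so for Neurl1b (0.73), Neurl3 (0.57), Tle1 (0.23) and Ctbp1 (-0.26), and Cre replicate 1 for Aph1b (0.74).

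**Figure D4:**
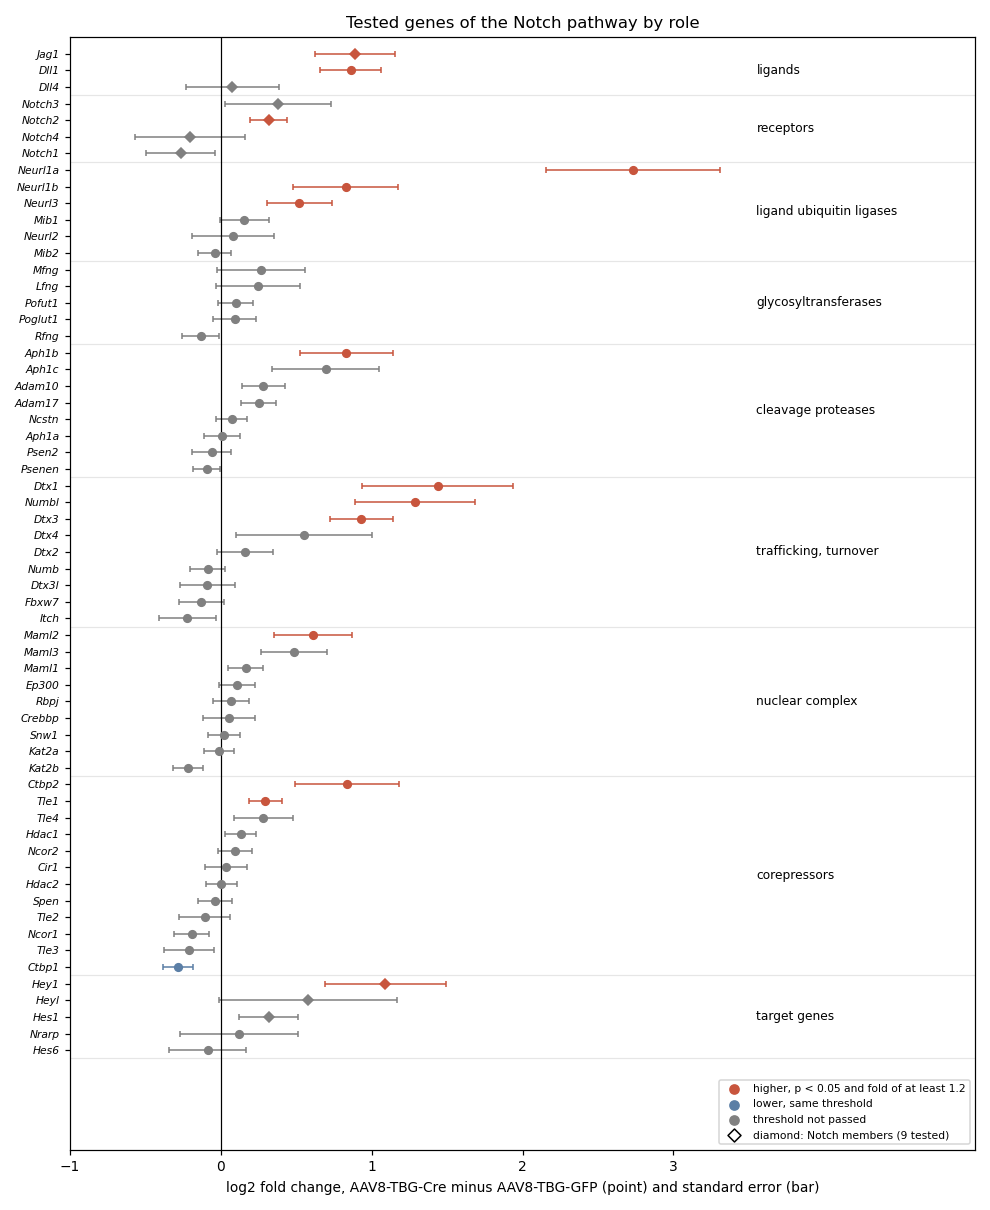
Log2 fold change (horizontal axis, Cre minus GFP, edgeR) with its standard error for 61 of the 62 tested genes of the wider Notch list, ordered by role, with diamonds for the 9 members tested and color for the threshold passed. Neurl1a is farthest right at 2.73, and 14 genes are marked higher and 1, Ctbp1, lower.

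Several cell types of the liver express Notch genes, and in bulk tissue fewer cells of a type and less RNA per cell cannot be told apart. Of 10 tested cholangiocyte markers, 10 rose, with a median log2 fold change of 2.35. Their summed level was 74.1 to 131 CPM with GFP and 314 to 593 with Cre. The most abundant was Spp1 (osteopontin), at a log2 fold change of 2.28 (edgeR, adjusted p = 0.0444). Spp1 alone made up most of this sum in every liver, at 38.0 to 89.0 CPM with GFP and 219 to 457 with Cre. Stellate and mural cell markers rose in 4 of 12 cases (33.3%, against 12.0% of all genes tested), with a median log2 fold change of 0.24. It was below 0 for 4 of the 12, Myh11 (-1.16), Acta2 (-0.37), Lrat (-0.25) and Reln (-0.10), none of them called. The sum of this list was 234 to 354 CPM with GFP and 341 to 680 with Cre, and these ranges overlapped. The highest of these were Dcn and Col1a1, at 0.38 and 2.15 (edgeR, adjusted p = 0.481 and 0.0612). The highest sum of both lists was in Cre replicate 2, as it was for the macrophage and Kupffer and the T, NK and B cell lists below. That liver was also highest for 6 of the 9 members tested, Jag1, Notch2, Notch3, Hes1, Hey1 and Heyl, and for 23.3% of all genes tested.

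The counts of calls that follow stand beside 12.0% of all genes tested called higher and 8.41% called lower. Endothelial markers had a median log2 fold change of -0.29, and 1 of 12, Stab2, fell, near the share of all genes called lower. Their sum was 228 to 374 CPM with GFP, with the low value in replicate 3, and 246 to 289 with Cre. Eng, the other abundant marker, was at -0.25 (edgeR, adjusted p = 0.556). Macrophage and Kupffer cell markers rose in 5 of 8 cases, led in level by Cd5l and Csf1r (0.71 and 0.68). Of the T, NK and B cell markers 2 of 3 tested rose (Cd8a and Cd79a), and of the neutrophil markers 2 of 4 rose and 1 (Ly6g) fell, with Cxcr2 at 0.04. Hepatocyte markers, among them Alb and Cyp2e1 (-0.19 and -0.36), gave 1 higher and 1 lower call among 8, and their summed level of 79260 to 112600 CPM was far above that of the other lists. The part of these cell types in the Notch values was not tested.

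**Figure D5:**
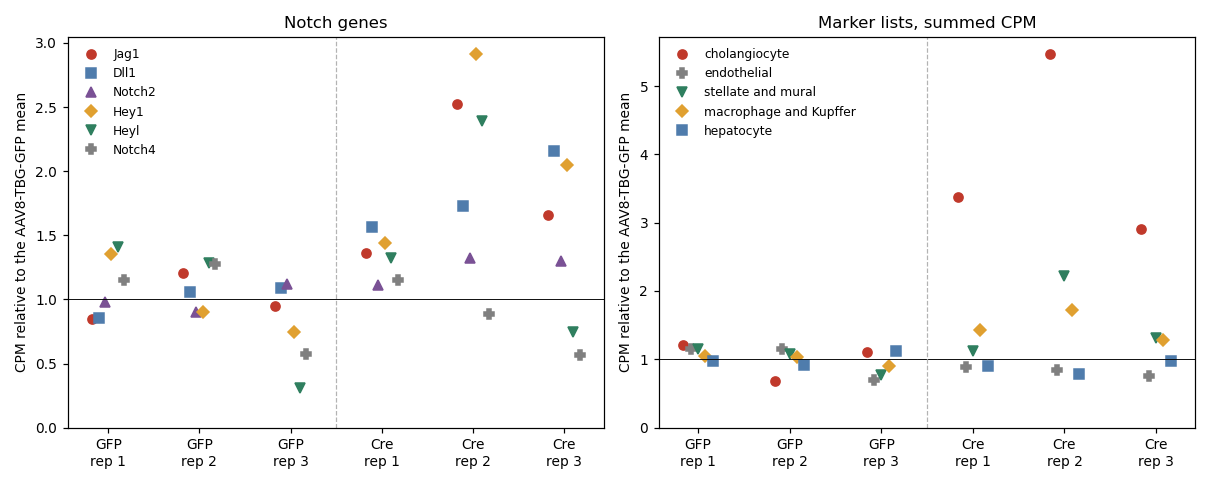
Level relative to the GFP mean (vertical axes) in each of the 6 livers for 6 Notch genes (left, CPM) and for 5 marker lists (right, summed CPM), with a line at the GFP mean. Cre replicate 2 reaches 2.52 for Jag1, 2.91 for Hey1 and 5.47 for the cholangiocyte list, the highest of the 6 livers for each. Most of the cholangiocyte sum is Spp1.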

How the data were processed

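Bulk RNA-seq was measured in 6 livers, 3 per vector as given by the sample titles. The authors deposited expected counts and FPKM per transcript for each liver, and FPKM per gene. The submitters' processing notes name HISAT2, Bowtie2, RSEM and mm10 without roles or versions, whereas STAR, HTSeq and DESeq2 are the tools given in the paper's methods. The deposited expected counts are unnormalized, and the authors scaled FPKM by transcript length and mapped fragments.

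Expected counts were summed per NCBI gene ID and rounded. The main test was the edgeR 4.0.16 quasi-likelihood test in R 4.3.3 (TMM, filterByExpr, vector only), run on 13431 genes. Calls needed an unadjusted p under 0.05 and a fold of at least 1.2, or a Benjamini-Hochberg adjusted p under 0.05. Standard errors were derived from the quasi-F statistic. Exact permutation tests used scipy 1.17.1. The alternatives were DESeq2 1.42.0, RLE, no count filter, a replicate block, the library name form as a covariate, limma 3.58.1 on log2(FPKM + 1) or log2(FPKM + 0.1) with at least 0.5 FPKM in 3 livers, the former also unfiltered, a fold of 1.5, and leaving out each liver. The steps were tested on simulated data.

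The members and gene lists were chosen with earlier results of these data known. Named were all members, every wider-list gene called, Rbpj, Maml1, Psen2, Ncstn, Adam10 and Adam17, Mettl14, and the 2 most abundant markers per list. Hes5 and untested ligands were named after their values were seen. Some genes of these lists are counted but not reported singly here. Promoters came from RefSeq (GRCm38.p6). CPM near 1 rests on about 20 counts, so counting error is large there. P-values set the difference between the groups against the spread between these livers.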

Additional observations from a re-analysis of the deposited data

How the results depend on the processing

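Jag1 kept its direction and call under all 14 alternatives, and Notch1, Notch3 and Heyl kept their direction and stayed uncalled. At the unadjusted threshold, the members called higher numbered 1 with the name form as a covariate and 1 to 3 when a liver was left out. Notch2 was 0.23 with the name form and 0.25 to 0.39 with a liver left out. Hey1 was 1.00 with the name form and 0.79 to 1.36 with a liver left out. Notch4 turned to 0.12 with the name form and lay between -0.50 and 0.02 with a liver left out, Dll4 between -0.15 and 0.43, and Hes1 between 0.13 and 0.49. The cause of these shifts was not tested.

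Of the wider list, 7 genes were higher with the name form, 8 and 9 with limma at pseudocounts of 1 and 0.1, and 6 to 15 with a liver left out. The 1618 higher calls over all genes became 1421, 1880 and 1995 in the first 3 settings, and 1108 to 2018 with a liver left out. With the name form, 7 of 62 stood beside 1421 of 13431, a similar share. Lower genes numbered 0 with limma at both pseudocounts, without its filter and at a fold of 1.5, and 0 to 2 with a liver left out. By adjusted p there were 3 in DESeq2, 1 in edgeR without a filter and 0 to 3 with a liver left out. Over all genes, 1129 lower calls became 365, 376 and 364 with limma (pseudocount 1, 0.1, and 1 unfiltered), 407 at a fold of 1.5, and 735 to 1712 with a liver left out. The 125 genes past the adjusted p became 1157 with DESeq2, 372 without a filter, 214 with the name form, 22, 27 and 9 with limma, and 0 to 928 with a liver left out.

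No pairing of the livers by replicate number was seen. The correlations of same-numbered deviations were 0.009, -0.263 and 0.209, and of the Cre livers only replicate 3 correlated best with its own number. Deviations from the mean of only 3 livers constrain one another, so these correlations cannot exclude a pairing. With the replicate block, 7 genes passed the adjusted p and Hey1 was 1.07 and no longer called. Depth limits Jag2 and Hey1, at 14 and 33 counts over the GFP livers.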

Other observations

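Of the 62 tested genes of the wider Notch list, 11 (17.7%) separated the 3 livers with a 2-digit library name from the 3 with a 4-digit name, against 21.6% of all genes tested. Dtx4, a deltex-family gene singled out after its values were seen, had 6.81, 6.48 and 6.87 CPM in the livers with a 2-digit name (GFP replicates 1 and 2 and Cre replicate 1). In the livers with a 4-digit name it had 15.6 (GFP replicate 3), 19.8 and 15.5 CPM (Cre replicates 2 and 3). Its log2 fold change between the vectors was 0.55 (edgeR, adjusted p = 0.535).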
